A study of Mus musculus with 16 samples.

Results

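The mature miRNAs mmu-miR-23a-3p, mmu-miR-23b-3p, mmu-miR-27a-3p, mmu-miR-27b-3p and mmu-miR-24-3p (without the mmu prefix from here on), the 3p products of the paired miR-23/27/24 clusters of the mouse genome, were examined in plasma extracellular vesicles. They were taken by name and not by their levels, and are 5 of the 817 mature miRNA entries and of the 15159 ncRNA entries measured. Small RNA was sequenced from small extracellular vesicles (pEVs) of 8 PS19 mice and 8 wild-type (WT) mice, 1 library per mouse, to ask whether tau pathology is accompanied by a change in circulating vesicle cargo. PS19 mice are heterozygous for a transgene that expresses human tau with the P301S mutation from the mouse prion promoter, which drives expression broadly in neurons, on a mixed B6 and C3 background, and the WT mice were their littermates. All mice were about 9.6 months old, with equal numbers of males and females. The vesicles were precipitated from 200 µL of plasma, a step that also brings down plasma proteins and lipoproteins. The pEVs come from many tissues, and an entry's level does not separate fewer vesicles of a source from less RNA in each vesicle.

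miRNAs guide Argonaute proteins to mRNAs that pair with the seed, bases 2 to 8 of the mature strand, and the pairing lowers the mRNA's translation or stability. The miR-23/27/24 genes exist as an intergenic cluster and as a cluster inside a host gene, and each cluster is transcribed as a common precursor that is cut into separate hairpins. They are widely expressed, with known roles in blood vessel, blood cell, muscle and lipid biology. miR-23a-3p is also used in plasma work as a reference miRNA that red cell lysis affects little, paired with the red cell miRNA miR-451a.

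The mature sequences show which members can be told apart by their reads and which share a seed. They are RefSeq sequences with GRCm38.p6 positions, matched for 4 of the 5 members, all but miR-23b-3p, and are written 5′ to 3′ with the seed in capitals.
miR-23a-3p: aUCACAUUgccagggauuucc
miR-27a-3p: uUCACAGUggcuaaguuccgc
miR-27b-3p: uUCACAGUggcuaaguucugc
miR-24-3p: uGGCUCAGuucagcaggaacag
miR-128-3p: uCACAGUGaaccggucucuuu
miR-27a-3p and miR-27b-3p have the same seed and differ over their 21 bases by C19U, with positions counted from 1 at the 5′ end and the base of miR-27a-3p first. The seed of miR-23a-3p differs from that of the miR-27 pair by U7G. miR-23a and miR-23b are known as members of one seed family. miR-24-3p has an unrelated seed, carried also by 4 other mature miRNAs of the RefSeq table, none of them with an entry in these data. miR-128-3p, a miRNA rich in neurons, is shown because it holds an 8-base run of miR-27a-3p that starts at base 2 of miR-27a-3p and at base 1 of miR-128-3p, so that its seed is shifted by 1 base. How the authors' counting divided reads that end before base 19 between miR-27a-3p and miR-27b-3p is not given in the sources used here, and the split within that pair is uncertain to that extent. How reads were divided within the miR-23 pair is likewise not given.

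The hairpins lie at 2 loci. On the plus strand of chromosome 8, Mir23a (chr8:84208518-84208592), Mir27a (chr8:84208672-84208758) and Mir24-2 (chr8:84208815-84208921) span 404 bases. GENCODE annotates no other gene over Mir23a and Mir27a, and an exon of the lincRNA Gm26532 overlaps Mir24-2. On the plus strand of chromosome 13, Mir23b (chr13:63300484-63300557), Mir27b (chr13:63300712-63300784) and Mir24-1 (chr13:63301208-63301275) span 792 bases. Mir23b lies in an intron of the protein-coding gene 2010111I01Rik, Mir27b and Mir24-1 each overlap an annotated exon of that gene, and all 3 lie opposite an intron of Fancc, a DNA repair gene. The mature miR-24-3p sequence is identical at both loci (chr8:84208875-84208896 and chr13:63301251-63301272), so its reads cannot be assigned to one of them.

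The depth behind the members differed widely. The libraries held 36220722 to 117583663 reads in all, of which 51467 to 2681285 fell on mature miRNAs, a share of 0.0631% to 7.40%. PS19 replicates 1 and 4 had the fewest mature miRNA reads, 69476 and 51467, and every other library had more than 100000. Each member had reads in 16 of 16 libraries, from 37 reads (miR-23b-3p in PS19 replicate 7) to 9179 reads (miR-27b-3p in WT replicate 2). Levels are given on 2 scales. The first is the deposited normalized count, a read count divided by the library's size factor over all ncRNAs. The second is reads per 1000000 mature miRNA reads (RPM), which sets each member against the other mature miRNAs of its library.

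miR-27b-3p was the most abundant member and ranked 30 among the mature miRNA entries by mean normalized count. It was followed by miR-27a-3p at rank 37, miR-24-3p at 40, miR-23a-3p at 45 and miR-23b-3p at 83. Per nucleotide of mature sequence, the mean normalized counts were 94.8 for miR-27b-3p, 57.5 for miR-27a-3p, 51.9 for miR-24-3p and 47.8 for miR-23a-3p. In that order, miR-27b-3p was above miR-27a-3p in 16 of 16 libraries, by 0.83 ± 0.50 on the log2 scale per nucleotide (SD, n = 16), a value that depends on the uncertain split of reads within the miR-27 pair. The differences of the next neighbours were smaller than their spread. Per nucleotide, miR-27a-3p was above miR-24-3p in 11 of 16 libraries, by a log2 difference of 0.11 ± 0.26 (SD, n = 16). miR-24-3p was above miR-23a-3p in 8 of 16, by 0.10 ± 0.93 (SD, n = 16). These values include the division by length, 22 bases for miR-24-3p and 21 for miR-27a-3p and miR-23a-3p. In reads, without it, the mean log2 ratio was 0.05 for miR-27a-3p to miR-24-3p and -0.17 for miR-23a-3p to miR-24-3p. The order was set on these same libraries, so these are descriptions with no test. miR-23a-3p had more reads than miR-23b-3p in 16 of 16 libraries.

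For miR-23a-3p, the normalized count in PS19 was 146 at the lowest, 772 at the median and 2285 at the highest. In WT it was 697.9, 1019 and 1853. PS19 replicate 7 was the lowest and PS19 replicate 6 the highest of all libraries, and the PS19 values reached past the WT range at both ends. For miR-23b-3p, the normalized count was 30.9, 150 and 364 in PS19 and 113, 215 and 500 in WT. Here 7 of 8 PS19 libraries fell inside the WT range, and the lowest was again PS19 replicate 7.

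For miR-27a-3p, with known roles in fat cell and vessel biology, the normalized count was 180, 958 and 2246 in PS19 and 839, 1299 and 2478 in WT. 4 of 8 PS19 libraries fell inside the WT range and the others lay below it, with the lowest values in PS19 replicates 4 and 1. For miR-27b-3p, the normalized count was 536, 1951 and 3092 in PS19 and 1313, 1950 and 4246 in WT, so the medians were nearly the same and 5 of 8 PS19 libraries fell inside the WT range. For miR-24-3p, the normalized count was 195, 848 and 1908 in PS19 and 865, 1000 and 2493 in WT. Of the 8 PS19 libraries, 4 fell inside the WT range, and PS19 replicates 1 and 4 were the lowest.

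**Figure D1:**
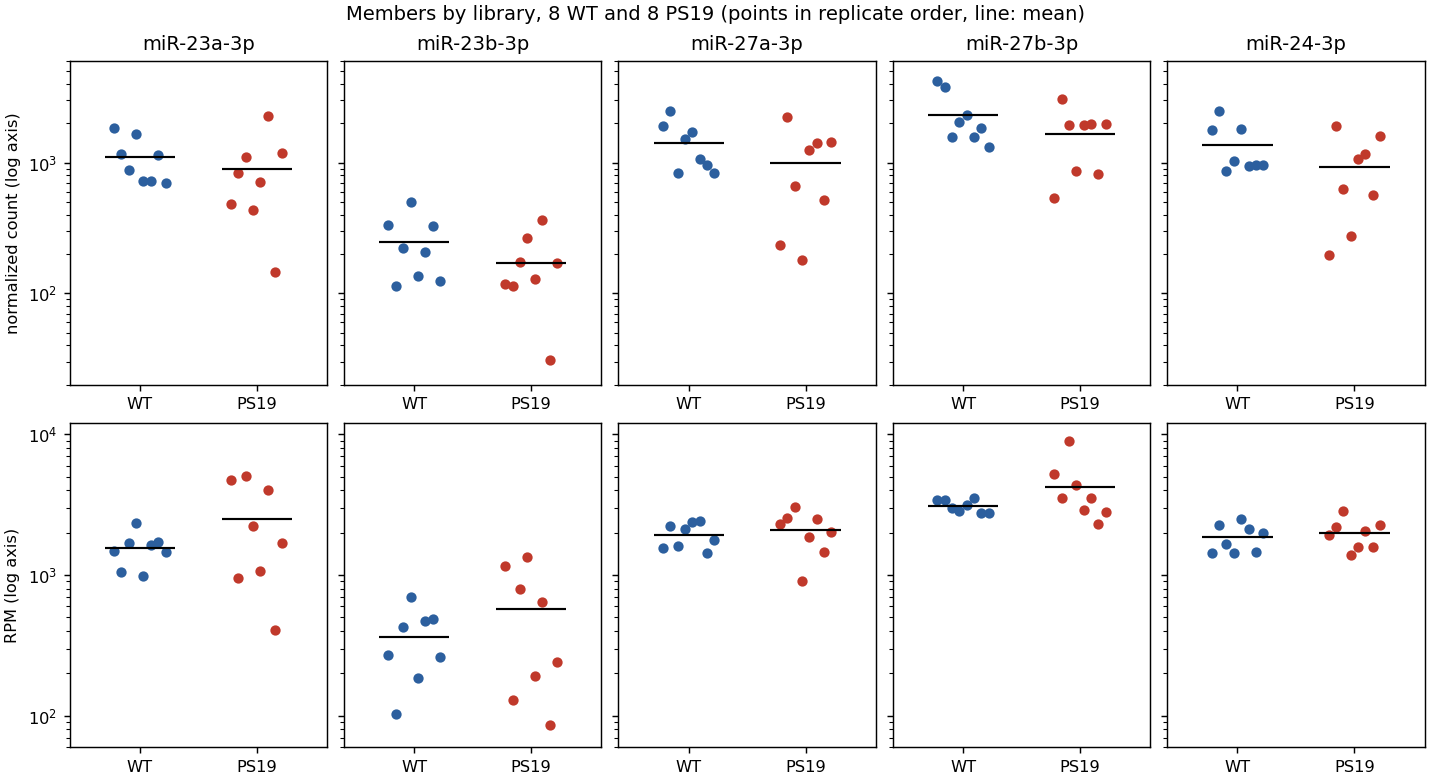
Each point is 1 library (8 WT in blue, 8 PS19 in red, in replicate order) and each line a group mean, on log axes; the upper row gives normalized counts and the lower row RPM, reads per 1000000 mature miRNA reads. The groups overlap for every member on both scales, and the WT points of miR-27b-3p in the lower row lie between 2755 and 3520 while those of PS19 lie between 2308 and 8909.

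None of the 5 members passed the test between the genotypes. limma on log2(normalized count + 1) over all 15159 entries called 0 of 5 at a raw p under 0.05, where it called 735 entries or 4.85% of all ncRNAs and 6.24% of the mature miRNAs. After Benjamini-Hochberg adjustment it called 0 of all entries, and on the recovered reads 0 of 5 members had a raw p under 0.05 with DESeq2, which called 5.42% of all ncRNAs, or with edgeR, which called 15.1%. The mean normalized count of miR-27a-3p was 996 ± 717 in PS19 and 1421 ± 596 in WT (SD, n = 8), and the log2 difference, PS19 minus WT, was -0.84 (limma SE 0.519, 95% confidence interval -1.91 to 0.22, adjusted p = 0.829, raw limma p-value 0.116, exact permutation p = 0.126). For miR-24-3p the means were 926 ± 617 and 1359 ± 602, and the log2 difference was -0.80 (limma interval -1.82 to 0.21, adjusted p = 0.829, raw limma p-value 0.116, exact permutation p = 0.109). The log2 differences of the other members were -0.62 for miR-23b-3p, -0.58 for miR-27b-3p and -0.57 for miR-23a-3p, with limma p-values of 0.224, 0.212 and 0.259. Two-sided exact permutation tests of the 5 members, 8 libraries against 8, gave p from 0.109 to 0.246. These intervals do not show that the genotypes have equal levels: for miR-27a-3p the interval runs from 0.266-fold to 1.17-fold of WT, and for miR-23a-3p from 0.333-fold to 1.36-fold.

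On this scale the members' median log2 difference was close to that of the more abundant mature miRNAs and further below 0 than that of all mature miRNAs. It was -0.62, against -0.25 over all mature miRNA entries, -0.64 over the 219 mature entries whose mean normalized count reached 10, and -0.01 over all ncRNAs. Of those 219 entries, 203 (92.7%) had a lower mean in PS19. On the RPM scale, which divides by the mature miRNA reads, the log2 differences of the members changed sign. They were 0.32 for miR-23a-3p, 0.27 for miR-23b-3p, 0.05 for miR-27a-3p, 0.31 for miR-27b-3p and 0.09 for miR-24-3p, with limma p-values of 0.531, 0.655, 0.902, 0.433 and 0.818. Again 0 of 5 were called, where 7.31% of all ncRNAs and 3.55% of mature miRNAs were. Without PS19 replicates 1 and 4, the libraries with the fewest mature miRNA reads, the log2 difference in normalized counts was -0.23 for miR-27a-3p, -0.26 for miR-24-3p, -0.22 for miR-27b-3p, -0.37 for miR-23a-3p and -0.72 for miR-23b-3p. Without PS19 replicate 2, in which miR-27a-3p was highest among the PS19 libraries, miR-27a-3p alone passed a raw p of 0.05, with a limma p-value of 0.0485 and a log2 difference of -1.07, in a setting that called 5.4% of all ncRNAs.

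**Figure D2:**
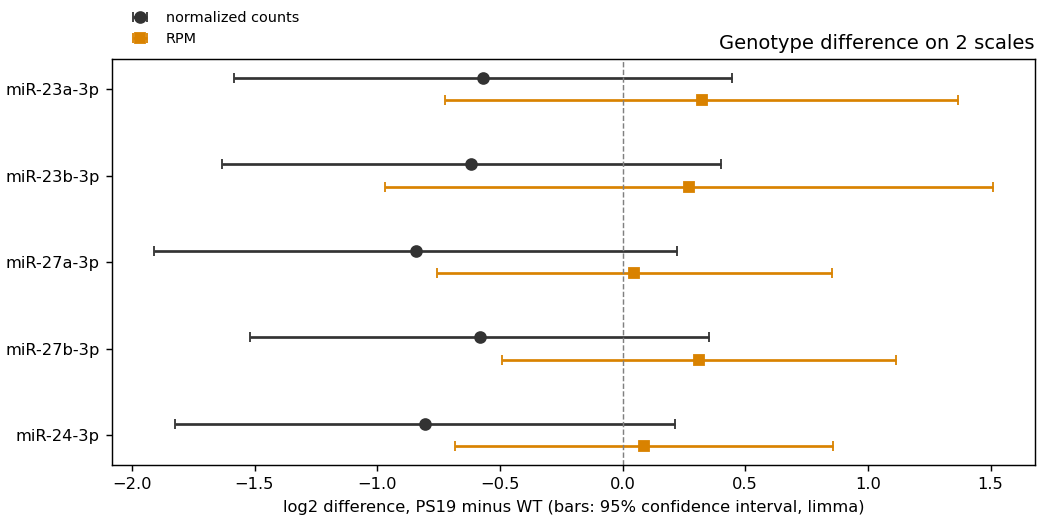
The log2 difference, PS19 minus WT, of each member is plotted on the x axis with its 95% confidence interval from limma, for normalized counts (circles) and for RPM (squares). Every circle lies below 0, every square lies above 0, and all 10 intervals include 0.

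The 5 members together took 1.01% ± 0.357 of the mature miRNA reads (SD, n = 16). In WT the share was 0.784% to 1.02%, and in PS19 it was 0.583% to 2.07%. Only 2 of 8 PS19 libraries fell inside the narrow WT range, with PS19 replicates 3, 1 and 6 at 2.07%, 1.54% and 1.28% above it, replicate 4 just above it and replicates 7 and 5 at 0.583% and 0.762% below it. The mean share was 1.14% ± 0.479 in PS19 and 0.882% ± 0.0791 in WT (SD, n = 8), a difference within the PS19 spread (exact permutation test, two-sided, p = 0.170, adjusted p = 0.843 over 7 measures). The difference in means, 0.254 percentage points, was 0.120 without PS19 replicate 3 (exact permutation p = 0.339) and 0.333 without PS19 replicate 7 (exact permutation p = 0.0516). The wider PS19 spread is a description, and a difference in spread was not tested.

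Within the members' own reads, miR-27b-3p made up 36.1% on average, miR-27a-3p 20.8%, miR-24-3p 20.04%, miR-23a-3p 18.7% and miR-23b-3p 4.40% (mean of 16 libraries). The miR-23a-3p share ran from 7.01% to 31.5% of the members' reads and that of miR-23b-3p from 1.13% to 13.1%. By contrast, miR-27b-3p ran from 27.6% to 43.0%. The mean shares in PS19 and WT were 19.8% ± 9.11 and 17.6% ± 4.79 for miR-23a-3p and 36.7% ± 5.45 and 35.4% ± 3.33 for miR-27b-3p (SD, n = 8).

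**Figure D3:**
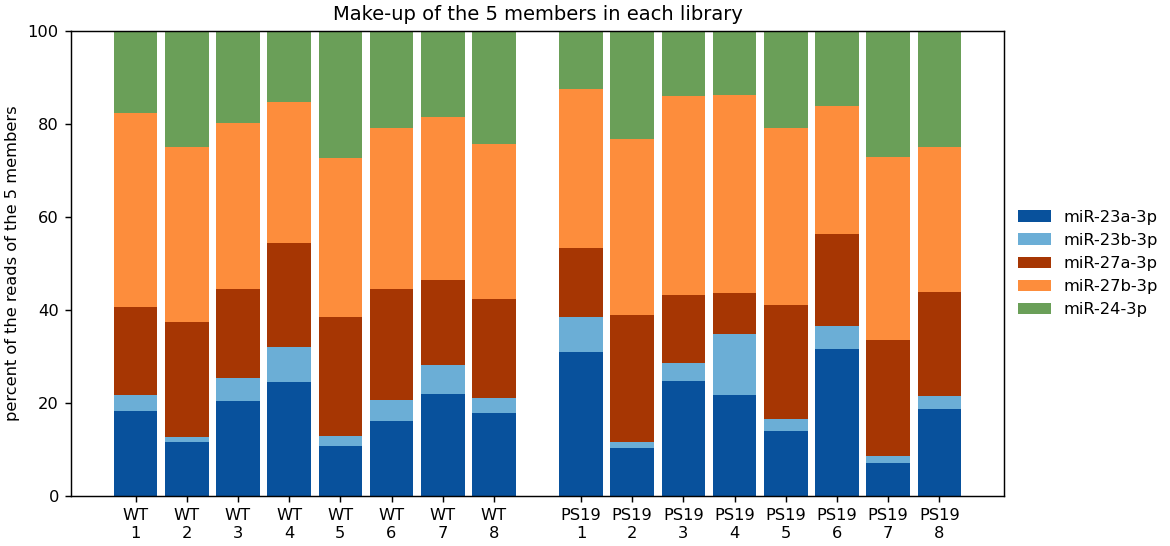
Each bar is 1 library, and its colours give the percent of the reads of the 5 members that each member took (y axis, 0 to 100). The blue miR-23 segments are widest in PS19 replicates 1 and 6 and narrowest in PS19 replicate 7, while miR-27b-3p, at 27.6% to 43.0%, is the widest segment in every bar except that of PS19 replicate 6.

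Ratios between members do not depend on the scale chosen, apart from the 1 added before taking logs, and none of them passed the test between the genotypes. The log2 ratio of miR-27a-3p to miR-27b-3p was -0.96 ± 0.65 in PS19 and -0.70 ± 0.26 in WT (SD, n = 8, exact permutation p = 0.334). The difference of -0.26 was -0.077 without PS19 replicate 4 and -0.0095 without PS19 replicates 1 and 4. The log2 ratio of miR-23a-3p to miR-23b-3p was 2.30 ± 0.70 in PS19 and 2.25 ± 0.54 in WT (SD, n = 8, exact permutation p = 0.890). The chromosome 8 pair, miR-23a-3p plus miR-27a-3p, stood to the chromosome 13 pair, miR-23b-3p plus miR-27b-3p, at a mean of 0.976-fold over the 16 libraries and at 0.550- to 1.57-fold in single libraries, and the genotypes were not told apart by it (exact permutation p = 0.717). For the miR-27 pair against the miR-23 pair, the log2 ratio was 1.37 ± 0.98 in PS19 and 1.46 ± 0.57 in WT (SD, n = 8, exact permutation p = 0.828). miR-24-3p against the sum of the other 4 gave -2.14 ± 0.54 and -1.93 ± 0.36 (SD, n = 8, exact permutation p = 0.361), a difference of -0.21 that was -0.015 without PS19 replicates 1 and 4. All adjusted p over the 7 measures were 0.843 or 0.890.

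The ratio of miR-451a, a red cell miRNA, to miR-23a-3p is a common plasma measure of red cell lysis. Its log2 value was 0.95 ± 1.21 in PS19 and 1.05 ± 0.996 in WT (SD, n = 8, exact permutation p = 0.849), and single libraries ranged from 0.653-fold to 7.56-fold. The difference in log2 ratio was -0.10 over all libraries and -1.02 within those whose names open with the same letter (8 PS19 and 2 WT, exact permutation p = 0.356). miR-23a-3p itself ranged 15.6-fold between libraries in normalized counts, and 12.49-fold in RPM.

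Across the 16 libraries the ratios between members of a locus ranged from the tightest to nearly the widest. Among the 10 pairs, the tightest ratio of reads was that of miR-27a-3p to miR-24-3p, whose hairpins are neighbours on chromosome 8, with an SD of 0.26 on the log2 scale and a span of 2.26-fold between the lowest and highest library. Next was miR-27b-3p to miR-24-3p, with mir-27b and mir-24-1 neighbours on chromosome 13, at an SD of 0.42 and a ratio of 1.24-fold to 3.11-fold in single libraries. The widest among members of a common locus was miR-23b-3p to miR-24-3p, of which miR-24-3p also comes from chromosome 8, with an SD of 1.30 and a span of 21.1-fold. Between the chromosome 13 neighbours miR-23b-3p and miR-27b-3p the SD was 1.02 and the span 10.3-fold. On chromosome 8, miR-23a-3p to miR-27a-3p had an SD of 0.91 and a span of 8.62-fold. The family pairs, which lie on different chromosomes, were in between: the SD was 0.61 for miR-23a-3p to miR-23b-3p and 0.50 for miR-27a-3p to miR-27b-3p. These spreads are descriptions, and differences between them were not tested.

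Correlations of log2(RPM + 1) over the 16 libraries were computed for the 10 pairs. miR-23a-3p and miR-23b-3p varied together, with Pearson r = 0.87 and Spearman rho = 0.93, both with an adjusted p of 1e-04 over 10 pairs, from the smallest p that 100000 permutations can give. Without the 2 libraries farthest from the median of miR-23a-3p, r was 0.85, and within the genotypes it was 0.89 in PS19 and 0.93 in WT. miR-27a-3p and miR-24-3p had r = 0.79 and rho = 0.76 (permutation tests, adjusted p = 0.00095 and 0.00445), r = 0.77 without the 2 farthest libraries, and r = 0.86 in PS19 and 0.73 in WT. In contrast, miR-23a-3p and its chromosome 8 neighbour miR-27a-3p had r = 0.29 and rho = 0.14 (permutation tests, adjusted p = 0.396 and 0.687), with r = -0.04 without the 2 farthest libraries, 0.48 without PS19 replicates 1 and 4, 0.39 in PS19 and -0.34 in WT. miR-24-3p had r = 0.19 and rho = -0.14 with miR-23a-3p (permutation tests, adjusted p = 0.594 and 0.687), with r = -0.23 without the 2 farthest libraries, 0.48 in PS19 and -0.79 in WT. With miR-23b-3p it had r = -0.16 and rho = -0.32 (permutation tests, adjusted p = 0.608 and 0.375), with r = -0.14 without the 2 farthest libraries, 0.09 in PS19 and -0.67 in WT. The chromosome 13 neighbours miR-23b-3p and miR-27b-3p had r = 0.56 and rho = 0.48 (permutation tests, adjusted p = 0.0466 and 0.163), with r = 0.46 without the 2 farthest libraries, and r was 0.72 in PS19 and -0.43 in WT. miR-27a-3p and miR-27b-3p had r = 0.37 and rho = 0.56 (permutation tests, adjusted p = 0.252 and 0.0868), and r was 0.69 without the 2 farthest libraries and also without PS19 replicates 1 and 4. miR-27b-3p and miR-24-3p had r = 0.47 and rho = 0.30 (permutation tests, adjusted p = 0.122 and 0.375), with r = 0.10 without the 2 farthest libraries, 0.55 in PS19 and 0.39 in WT. miR-23b-3p and miR-27a-3p had r = -0.10 and rho = 0.01 (permutation tests, adjusted p = 0.712 and 0.970), with r = 0.12 without the 2 farthest libraries. miR-23a-3p and miR-27b-3p had r = 0.71 and rho = 0.42 (permutation tests, adjusted p = 0.00623 and 0.215), and r = 0.52 without the 2 farthest libraries. This relation did not hold within WT, where r was -0.44 against 0.79 in PS19, and for none of the pairs was the difference in r between the genotypes tested. All of these points share a denominator, the library's mature miRNA reads, of which the members are about 1.01%.

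**Figure D4:**
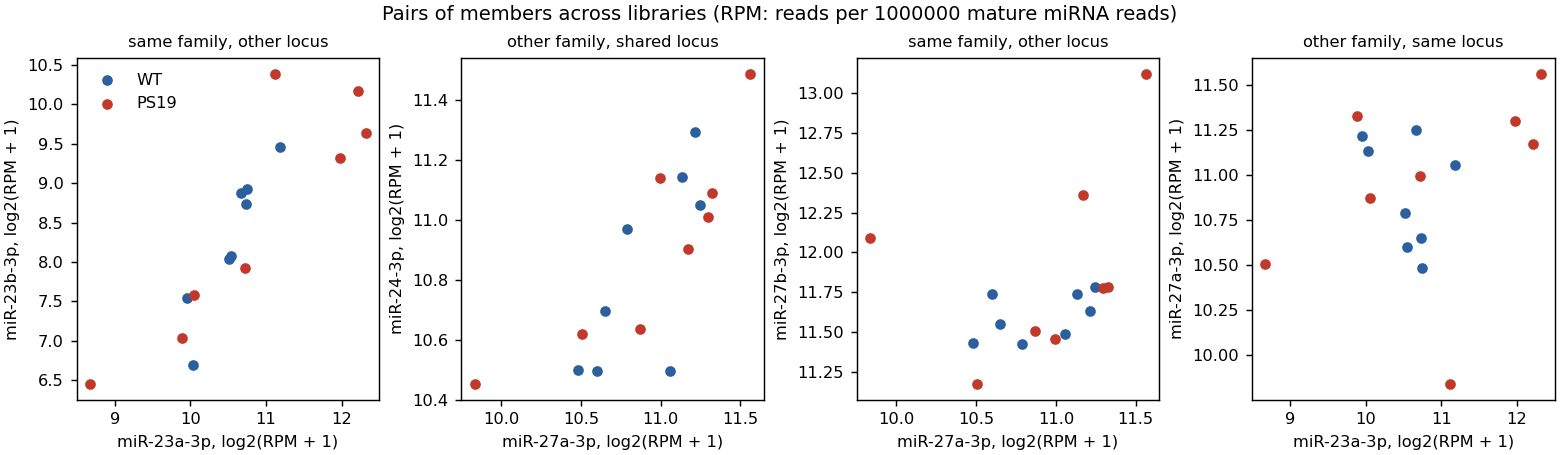
Each panel sets 2 members against each other in log2(RPM + 1), 1 point per library (WT blue, PS19 red). The miR-23 pair and the pair of miR-27a-3p and miR-24-3p lie along a line with r of 0.87 and 0.79, while miR-23a-3p and miR-27a-3p, from neighbouring hairpins, scatter with r of 0.29.

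The mature miRNAs outside the clusters that were most like the members on the RPM scale, among 212 entries whose mean normalized count reached 10, also differed by member. For miR-23a-3p these were miR-152-3p (r = 0.81 over 16 libraries), miR-199a-3p and miR-199b-3p (both 0.79). For miR-23b-3p they were miR-152-3p (0.87), miR-30a-3p (0.81) and miR-30c-5p (0.79). For miR-27b-3p they were miR-199a-3p and miR-199b-3p (both 0.88) and miR-221-3p (0.87), and for miR-27a-3p they were miR-184-3p (0.88), miR-147-3p (0.82) and miR-205-5p (0.78). For miR-24-3p they were miR-183-5p (0.83), miR-200a-3p (0.77) and miR-182-5p (0.75). The median r over the 212 entries was 0.24 for miR-23a-3p, 0.28 for miR-23b-3p, 0.01 for miR-27a-3p, 0.17 for miR-27b-3p and 0.03 for miR-24-3p. These are descriptions of the top of a ranked list.

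The other strand of each hairpin was rare, with 1 exception. Over the 16 libraries, miR-23a-3p had 18569 reads and its 5p arm 52, or 357 reads per read. The ratio was 51.7 for miR-23b-3p over miR-23b-5p (3465 and 67 reads), 108 for miR-27a-3p over miR-27a-5p (26740 and 248) and 845 for miR-27b-3p over miR-27b-5p (41423 and 49). In each case the 3p arm was above the 5p arm in 16 of 16 libraries. The exception was miR-24-2-5p, the 5p arm of the chromosome 8 copy of miR-24, with 4552 reads in all and reads in 16 of 16 libraries, against 25750 for miR-24-3p, or 5.66 reads of miR-24-3p per read.

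The 5p arms are the mature products that tell the miR-24 loci apart. In RefSeq miR-24-1-5p and miR-24-2-5p share their first 16 bases and differ by U17A, U19C, C20A, A21G and G22U, with the base of miR-24-1-5p first. miR-24-1-5p had 56 reads, found in 9 of 16 libraries, so the chromosome 8 arm exceeded the chromosome 13 arm 81.3-fold. The 95% Wilson interval for the chromosome 13 arm's part of both was 0.937% to 1.57%, which covers counting error only. WT replicate 2 held 37 of the 56 reads, and without it the ratio was 182-fold and the part 0.547% (Wilson interval 0.351% to 0.853%). Between the loci, the 3p arms stood at 4.84-fold for miR-23a-3p over miR-23b-3p and at 0.562-fold for miR-27a-3p over miR-27b-3p (means over 16 libraries), differences in opposite directions that are pooled in the 0.976-fold of the summed pairs. The log2 ratio of miR-24-3p to miR-24-2-5p was 2.52 ± 0.45 in PS19 and 2.65 ± 0.26 in WT (SD, n = 8, exact permutation p = 0.482), and single libraries ranged from 3.94- to 10.3-fold.

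**Figure D5:**
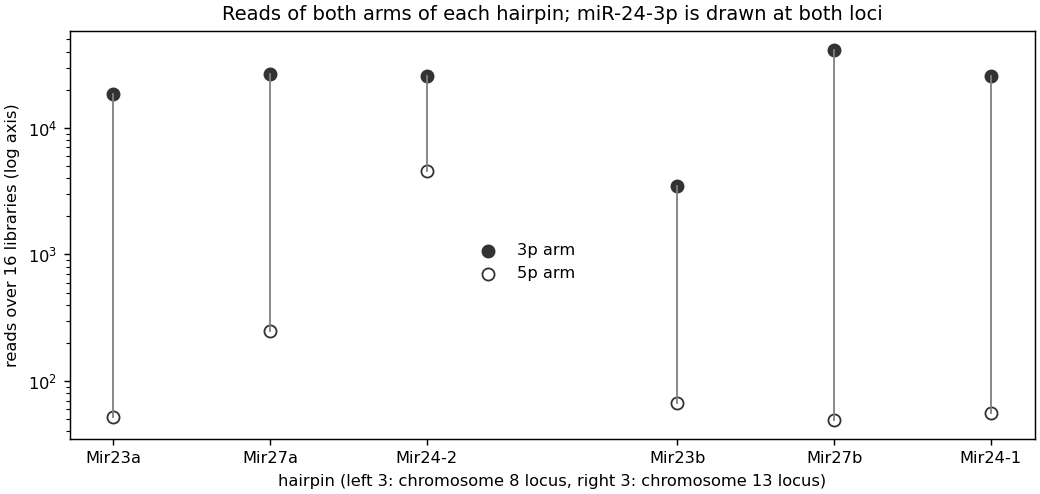
Reads summed over the 16 libraries (log axis) of the 3p arm (filled) and the 5p arm (open) of each hairpin, chromosome 8 on the left and chromosome 13 on the right; miR-24-3p has the same sequence at both loci and its 25750 reads are drawn at both. The open circle of Mir24-2, at 4552 reads, stands far above the other 5p arms, at 49 to 248 reads.

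Of the 16 other entries of the loci, the 5p arms, the hairpins and the products of mir-3074-1 and mir-3074-2 on the opposite strand of the miR-24 hairpins, 0 passed a raw p of 0.05 with limma, and the smallest p was 0.108. With DESeq2 on the recovered reads 0 passed, and with edgeR, which called 15.1% of all ncRNAs, 3 passed. These were mir-24-1, mir-3074-1 and miR-3074-1-3p, with 24, 38 and 25 reads over all libraries, of which WT replicate 2 held 18, 21 and 20. At a pseudocount of 0.1, where limma called 5.02% of all ncRNAs, 1 of 16 passed. Within the libraries that share a name letter, where it called 4.62%, 4 of 16 passed. That setting sets 8 PS19 libraries against 2 WT libraries, of which WT replicate 2 is one. The log2 difference in normalized counts was below 0 for 15 of 16 entries, with a median of -0.65. On the RPM scale it was below 0 for 11 of 16, and 0 passed. A mean normalized count of 10 was reached by 3 of them: miR-24-2-5p at 194, the mir-27b hairpin entry at 28.0 and miR-27a-5p at 12.4, and the log2 differences of these in RPM were 0.22, 0.24 and 0.70. Whether the counting used strand is not given in the sources used here, so reads of miR-24 and mir-3074 products may not be told apart.

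Entries that mark the cell sources of plasma RNA moved over wide ranges beside the members. The summed normalized count of 4 red cell miRNAs was 1952 to 44873 in PS19 and 17302 to 94866 in WT, and 1 of 4 passed a raw p of 0.05 with limma, which called 4.85% of all ncRNAs and 6.24% of mature miRNAs. That of 2 liver miRNAs was 8373 to 211497 in PS19 and 26450 to 385899 in WT (1 of 2 passed), and that of 3 muscle miRNAs was 1733 to 94150 and 4513 to 64139 (1 of 3 passed). The entries that passed were miR-486a-5p of red cells and miR-122-5p of liver, lower in PS19 at log2 differences of -1.41 and -1.57, and miR-206-3p of muscle, higher at 1.79. In RPM the first 2 were at -0.51 and -0.68 and did not pass. The endothelial list ran from 516 to 2262 in PS19 and from 1444 to 3373 in WT (0 of 2 passed with limma). Its entry miR-126a-3p had a log2 difference of -0.75 in normalized counts (exact permutation p = 0.0169, limma adjusted p = 0.829). In RPM its difference was 0.14 (exact permutation p = 0.606). The platelet and myeloid list ran from 97.0 to 398 in PS19 and from 144 to 399 in WT (0 of 4). The neuron list ran from 982 to 10024 and from 2208 to 10423 (0 of 5). No listed entry was at 0 in all libraries. On the RPM scale, where 3.55% of mature miRNAs were called, 3 of the 20 listed entries passed a raw p of 0.05, all higher in PS19. miR-223-3p, a miRNA of myeloid cells and platelets, had a log2 difference of 1.59 in RPM (exact permutation p = 0.0179, limma adjusted p = 0.660) and of 0.70 in normalized counts (exact permutation p = 0.211). In RPM the other platelet and myeloid entries were at 0.77 for miR-142a-3p, 0.70 for miR-150-5p and -0.29 for miR-142a-5p, and in normalized counts these 3 were below 0. The list ran from 285 to 1819 RPM in PS19 and from 269 to 541 in WT. The other entries called in RPM were the muscle miRNAs miR-206-3p and miR-133a-3p, with log2 differences of 2.68 and 2.12, while miR-1a-3p of that list was at 0.87. In normalized counts these 3 were at 1.79, 1.16 and -0.02, and only miR-206-3p passed. After adjustment 0 of all entries passed on the RPM scale. miR-128-3p, with the shifted seed, had a mean normalized count of 2774 ± 2087 in PS19 and 3604 ± 1871 in WT (SD, n = 8, exact permutation p = 0.202, limma adjusted p = 0.829). PS19 replicate 4 stood at 7413, and the next PS19 library, replicate 2, at 3127. In RPM the log2 difference of miR-128-3p was 0.32 (exact permutation p = 0.571). The part of these sources in the members' values was not tested.

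The letters that open the library names also differed between the groups. All 8 PS19 libraries and 2 WT libraries shared a letter, and 6 WT libraries had other letters. What the letter stands for is not given. Within the 10 libraries that shared it, the log2 difference in normalized counts was -0.99 for miR-23a-3p, -0.75 for miR-23b-3p, -1.40 for miR-27a-3p, -0.96 for miR-27b-3p and -1.15 for miR-24-3p, with limma p-values of 0.157 to 0.425.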

How the data were processed

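The files hold ncRNA values of 16 pEV libraries. The authors aligned single-end reads (NEBNext small RNA libraries, NextSeq) with STAR 2.5.3a, assigned them with COMPSRA, and used DESeq2 1.42.1. The deposited signal values are read counts divided by each library's size factor. The log2 values deposited by the authors are fold changes and their errors, the deposited score is a Wald statistic, and each p-value the authors deposited is raw or adjusted. These comparison columns were not used. No column of per-sample values was left without a sample.

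Each library's smallest positive value was taken as the worth of 1 read, and 100% of values were whole within 1e-06 of a read. limma 3.58.1 (lmFit, eBayes with trend) was fitted on log2(value + 1) over all 15159 entries in R 4.3.3, and a fold on this scale understates low entries. DESeq2 1.42.0 and edgeR 4.0.16 on the recovered reads were alternatives. On simulated counts of 14545 entries with 200 changed by 4-fold, limma called 71.0% of the changed and 4.81% of the unchanged entries at a raw p of 0.05. Ratios and the share were tested by two-sided exact permutation of 8 libraries against 8 (smallest possible p 0.000155), and correlations by 100000 permutations (scipy 1.17.1). Group values are mean ± SD. With 51467 to 2681285 mature miRNA reads per library, 1 read is worth 0.373 to 19.4 RPM, Wilson intervals cover counting error only, limma intervals rest on the spread between libraries, and ligation bias can shift levels between miRNAs.

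Named entries were the 5 members, every other entry of the loci, the 3 mature miRNAs most like each member, entries sharing a seed or the reads of a member (no entry met the last rule), and miR-451a and miR-128-3p, with 6 marker lists, which hold the other miRNAs of the naming rule. Other scalings, filters and pseudocounts, a replicate block, subsets of libraries and each library left out in turn were the further alternatives; the subset without PS19 replicates 1 and 4, the RPM scale in subsets, the differences between neighbours in level and the relations to the mature miRNA share were added after seeing the data. Members, lists and tests were chosen with earlier results of these data known. Sequences and positions are from RefSeq, GRCm38.p6, and hairpin positions were the same in GENCODE M21. Replicate numbers are those of different mice: same-numbered libraries correlated at -0.17 to 0.52 in their deviations, over 0.1 in 1 of 8 pairs, so the numbers do not pair them. The cortical data were not analysed here.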

Additional observations from a re-analysis of the deposited data

Results flagged for a closer look

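Of 34 groups of 8 libraries examined for a library far from the rest, 3 held one, where chance alone would mark about 1 in 20 groups. The groups come from the same 16 libraries and from related measures, so this rate is only a rough guide. miR-27b-3p stood at 8909 RPM (reads per 1000000 mature miRNA reads) in PS19 replicate 3, and the next PS19 library stood at 5254. RPM values were examined without taking logs. The log2 ratio of miR-23a-3p to miR-23b-3p was 0.72 in PS19 replicate 4, below the next value of 2.04. There it rests on 114 and 69 reads, and miR-23b-3p made up 37.7% of the pair (95% Wilson interval 31.0% to 44.9%, counting error only). The same log2 ratio was 3.34 in WT replicate 2, above the next value of 2.47, from 2813 and 275 reads. PS19 replicate 4 had the fewest mature miRNA reads of all libraries and WT replicate 2 the most.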

How the results depend on the processing

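The 5 members kept a log2 difference below 0 in all alternatives other than those on the RPM scale, and none passed a raw p of 0.05 except miR-27a-3p without PS19 replicate 2. Leaving out 1 library at a time, the log2 difference ran from -0.81 to -0.25 for miR-23a-3p, -0.81 to -0.31 for miR-23b-3p, -1.07 to -0.55 for miR-27a-3p, -0.74 to -0.38 for miR-27b-3p and -1.01 to -0.54 for miR-24-3p, and the count of members called was 0 to 1. On the RPM scale the values were 0.32, 0.27, 0.048, 0.31 and 0.087 in the same order. With 2 settings chosen after seeing the data, RPM without PS19 replicates 1 and 4 gave 0.057 for miR-23a-3p, 0.20 for miR-27a-3p, 0.21 for miR-27b-3p and 0.17 for miR-24-3p (miR-23b-3p -0.30), and RPM within the shared name letter gave 0.26 for miR-23a-3p, 0.49 for miR-23b-3p, 0.29 for miR-27b-3p and 0.10 for miR-24-3p (miR-27a-3p -0.15). The cause of these turns was not tested. With a replicate block, the log2 differences stayed as they were, 0 of 5 members passed, and 685 ncRNAs passed against 735 without the block; 1 of 8 libraries correlated best with its own number. The count of all ncRNAs was 444 with library totals, 1108 on the RPM scale, 2295 with edgeR and 230 at a mean of at least 10, where fewer entries were tested; it was 567 to 846 with 1 library left out. The count among the 16 other entries of the loci was 3 with edgeR, 1 at a pseudocount of 0.1, 4 within the shared name letter (all ncRNAs: 2295, 761 and 644), and 0 to 1 with 1 library left out. Ratios near 0 changed sign: with 1 library left out, the difference in log2 ratio ran from -0.033 to 0.27 for miR-23a-3p to miR-23b-3p, -0.17 to 0.048 for the loci, -0.31 to 0.058 for miR-27 to miR-23 and -0.39 to 0.093 for miR-451a to miR-23a-3p. It ran from -0.33 to -0.077 for miR-27a-3p to miR-27b-3p and from -0.31 to -0.12 for miR-24-3p to the other 4, and the difference in share from 0.120 to 0.333 percentage points. Within the shared name letter miR-23a-3p to miR-23b-3p was -0.24 and miR-451a to miR-23a-3p -1.02. Without the library under 50% of the median total, miR-27 to miR-23 was 0.033 and miR-451a to miR-23a-3p 0.0071, and without PS19 replicates 1 and 4 the loci, miR-27 to miR-23, and miR-451a to miR-23a-3p were 0.033, 0.22 and 0.20. In that last subset miR-23a-3p to miR-23b-3p was 0.35 (exact permutation p = 0.170). No ratio passed 0.05 under any of these.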

Other observations

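The proportions of the members were set beside the mature miRNA share of the library's reads, a relation chosen after the data had been seen and computed for 7 measures. The log2 ratio of the miR-27 pair to the miR-23 pair was higher in libraries with a larger mature miRNA share (Pearson r = 0.68, Spearman rho = 0.75, n = 16 libraries, permutation tests, adjusted p = 0.00553 and 0.0056). Without the 2 libraries farthest from the median share, r was 0.62, and within the genotypes it was 0.67 in PS19 and 0.83 in WT. miR-24-3p against the other 4 members varied in the same direction, with r = 0.72 and rho = 0.74 (permutation tests, adjusted p = 0.00553 and 0.0056), 0.67 without the 2 farthest libraries, 0.83 in PS19 and 0.48 in WT. For miR-27a-3p to miR-27b-3p, r was 0.70 and rho 0.64 (permutation tests, adjusted p = 0.00553 and 0.0216), with r = 0.61 without the 2 farthest libraries, 0.87 within PS19 and 0.21 within WT. For miR-23a-3p to miR-23b-3p, r was 0.70 and rho 0.51 (permutation tests, adjusted p = 0.00553 and 0.0855), with r = 0.79 in PS19 and 0.74 in WT. Without the 2 farthest libraries r was 0.32, so the pooled relation rests on them. The ratio between the loci had r = 0.26 and rho = -0.04 (permutation tests, adjusted p = 0.334 and 0.873), with r = 0.45 in PS19 and -0.38 in WT. The miR-451a to miR-23a-3p ratio had r = 0.48 and the members' share of the mature miRNA reads r = -0.42 (permutation tests, adjusted p = 0.0845 and 0.134). In PS19 and WT, r was 0.65 and 0.27 for the miR-451a ratio and -0.48 and 0.28 for the share.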
